A study of Mus musculus with 4 samples.

Results

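Krueppel-like factors (KLFs) are zinc finger transcription factors. Described here are 10 of their genes that held FoxO1 chromatin immunoprecipitation signal in the mouse heart. The genes were Klf2, Klf3, Klf4, Klf6, Klf7, Klf9, Klf10, Klf11, Klf13 and Klf15, chosen by name with earlier results of these data known. Every deposited region assigned to 1 of these symbols was taken, which gave 51 of 16126 regions. FoxO1 belongs to the forkhead transcription factors and is excluded from the nucleus when insulin signals. Its binding was profiled by sequencing of immunoprecipitated chromatin (ChIP-seq) in hearts of wild type C57BL/6 male mice aged 12 weeks, after 7 days of treatment. The Veh/Sham mice had daily subcutaneous vehicle and a sham operation. The Iso mice had subcutaneous isoproterenol, a beta-adrenergic agonist, at 3 mg/kg/day. The TAC mice had transverse aortic constriction, which loads the left ventricle with pressure. Each condition was 1 library from a pool of 3 hearts, and the labels give Drosophila chromatin as a spike-in in each of them. With 1 library per condition there was no replicate error and no test, so each difference below is between 2 pools. Whole hearts were used, so a change in the share of a cell type and a change of signal within its cells cannot be told apart. The labels name a sham operation for neither the Iso nor the TAC mice.

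KLFs bind GC-rich and CACCC boxes through 3 zinc fingers near the C terminus. As background, they fall into groups by partner. Klf2, Klf4, Klf6 and Klf7 are mostly activators, Klf3 is a repressor that recruits CtBP, and Klf9, Klf10, Klf11 and Klf13 carry domains that bind the Sin3 corepressor. In the heart and vessels Klf2 and Klf4 are known as flow-responsive factors of the endothelium, and Klf15 as a restraint on cardiomyocyte hypertrophy and a driver of lipid and amino acid use. Klf2 is a FoxO1 target gene in T lymphocytes of the mouse.

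Promoter sequences are shown for the genes whose start-site regions or motif matches the results return to. They come from RefSeq (GRCm38.p6, the assembly that mm10 names), run from 250 bases before to 50 after the annotated start, and read 5′ to 3′ on the gene's strand. Capitals mark the FoxO consensus GTAAACA, the insulin response core CAAAACA and the shorter forkhead core TAAACA, each on either strand.
Klf9 (chr19:23140976-23141275, plus strand): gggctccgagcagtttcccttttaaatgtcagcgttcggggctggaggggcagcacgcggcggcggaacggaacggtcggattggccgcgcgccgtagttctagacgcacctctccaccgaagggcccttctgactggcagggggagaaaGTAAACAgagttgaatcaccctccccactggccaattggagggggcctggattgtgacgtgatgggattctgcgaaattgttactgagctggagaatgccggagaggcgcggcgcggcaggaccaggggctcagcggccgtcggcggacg
Klf4 (chr4:55532426-55532725, minus strand): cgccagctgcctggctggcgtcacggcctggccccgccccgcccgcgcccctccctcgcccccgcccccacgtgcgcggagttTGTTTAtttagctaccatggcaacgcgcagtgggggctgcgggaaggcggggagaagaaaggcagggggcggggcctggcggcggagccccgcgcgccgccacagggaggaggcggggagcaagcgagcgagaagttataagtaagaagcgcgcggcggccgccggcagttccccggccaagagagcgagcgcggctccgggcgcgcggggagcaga
Klf11 (chr12:24651121-24651420, plus strand): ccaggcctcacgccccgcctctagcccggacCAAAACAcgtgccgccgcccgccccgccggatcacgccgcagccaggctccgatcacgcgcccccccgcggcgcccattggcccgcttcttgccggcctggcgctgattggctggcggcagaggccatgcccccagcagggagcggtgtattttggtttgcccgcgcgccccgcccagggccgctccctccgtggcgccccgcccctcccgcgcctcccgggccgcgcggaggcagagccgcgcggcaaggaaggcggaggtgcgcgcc
In the Klf2 promoter the capitals mark instead the KLF and Sp type boxes CCACCC and CCGCCC, on either strand.
Klf2 (chr8:72318812-72319111, plus strand): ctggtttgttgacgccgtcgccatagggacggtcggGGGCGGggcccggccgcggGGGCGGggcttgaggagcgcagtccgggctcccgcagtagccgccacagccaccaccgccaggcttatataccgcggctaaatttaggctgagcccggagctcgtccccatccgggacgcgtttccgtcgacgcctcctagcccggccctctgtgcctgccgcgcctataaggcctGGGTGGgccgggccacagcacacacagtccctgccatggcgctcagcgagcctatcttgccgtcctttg

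Of the 10 genes, 9 had a promoter in the table (Klf10 was not matched). GTAAACA was found in 1 of the 9, that of Klf9, against 3.65% of 32851 mouse promoters of the same length. It began 100 bp upstream of the Klf9 start, at chr19:23141126-23141132, inside a deposited FoxO1 region. CAAAACA was found in 1 of 9, that of Klf11, against 6.28% of all, 219 bp upstream and also inside a region. TAAACA, which lies within GTAAACA and was searched after the sequences had been seen, was in 2 of 9 (Klf9 and Klf4) against 13.4%. The Klf4 match is the reverse complement TGTTTA, 167 bp upstream and inside the region at the Klf4 start. CCGCCC was in 8 of 9 promoters, all but that of Klf9, against 35.7%. The 9 promoters held from 58.3% (Klf7) to 77.7% (Klf11) G and C, and the background was not matched for this. CCACCC was in 4 of 9 (Klf2, Klf3, Klf7 and Klf13) against 31.5%. These are matches of letters and say nothing of occupancy.

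FoxO1 signal at the KLF genes was spread over 2 to 11 regions per gene. Klf13 had 11 regions, Klf3 had 8, Klf7 and Klf9 had 6 each, Klf4 had 5, Klf2 and Klf6 had 4 each, Klf10 had 3, and Klf11 and Klf15 had 2 each. The median gene with a region had 1, and 10.8% of the 11718 genes in the table had at least 4. The members were chosen with earlier results known and gene length was not taken into account, so this is description only. A CpG island overlapped 24 of the 51 KLF regions (47.1%), against 54.1% of all regions. Within 1000 bp of the member's start lay 16 (31.4%). Of all regions 54.0% lay that near to the start of any gene assigned to them. The second measure is looser, since it also counts the starts of other genes, so the 2 shares are not compared. The KLF regions had a median length of 509 bp, against 409 bp. Their median signal (coverage by fragments, averaged over the region) was 9.32 for Veh/Sham, 9.08 for Iso and 13.9 for TAC, beside 8.71, 11 and 14.0 for all regions. All 8 Klf3 regions were also assigned to Gm20033, 4 Klf9 regions to Mir1192, 3 Klf6 regions to 1700016G22Rik, 3 Klf13 regions to E030018B13Rik and 1 Klf2 region to Gm10282.

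Called intervals were fewer in Iso than in the other libraries. The authors called 28 of the 51 KLF regions for Veh/Sham, 16 for Iso and 23 for TAC, beside 49.1%, 36.0% and 45.0% of all regions. In all 3 libraries 11 were called (22.1% of all regions were), and in none of them 17 (30.5%). The 11 regions called throughout belonged to Klf13 (4), Klf9 (2), Klf2, Klf3, Klf6, Klf7 and Klf15 (1 each). None of the 5 Klf4 regions was called in Iso or in TAC, and 1 was called in Veh/Sham. Whether a region was called was not read as an amount of binding.

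Klf9 held the highest FoxO1 signal of the family. Averaged over the 3 libraries, the highest region of each gene read 37.1 at Klf9, 23.8 at Klf10, 23.7 at Klf3, 23.6 at Klf2 and 21.0 at Klf13. Klf7 and Klf15 followed with 17.7 each, then Klf6 with 12.6, Klf4 with 12.0 and Klf11 with 11.8. Klf10, Klf3 and Klf2 are neighbours in this order that differ by under 0.2, and their order changes from library to library. The Klf9 region was number 77 of all 16126 by this mean, and the highest region of Klf11 was number 7012.

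**Figure D1:**
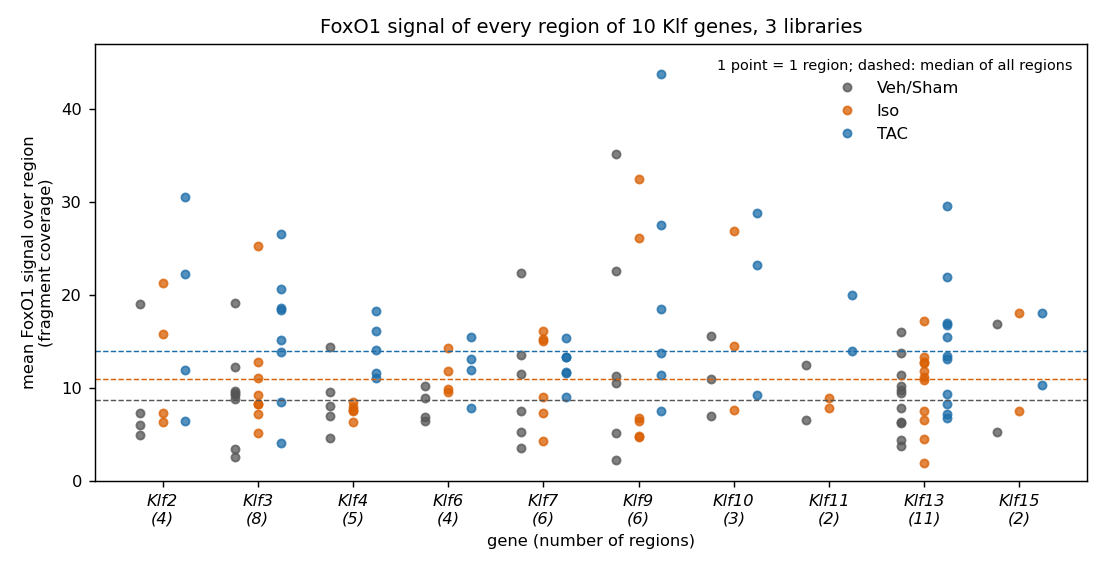
Mean FoxO1 signal (fragment coverage) of each of the 51 regions, by gene, in the Veh/Sham, Iso and TAC libraries (1 library each, 1 point per region); dashed lines are the medians of all 16126 regions (8.71, 11 and 14.0). The highest point of each library belongs to Klf9, at 35.1, 32.5 and 43.8.

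Klf2, a factor of quiescent endothelium and lymphocytes, had its main region over the start site (chr8:72318618-72319673, centred 83 bp into the gene, with a CpG island). Veh/Sham read 19.0, Iso 21.3 and TAC 30.5, with a call in each. The signal was thus highest in TAC, and Iso and Veh/Sham were close. The log2 ratio of TAC to Veh/Sham (mean signal plus a pseudocount of 1) was 0.66 there, near the median of 0.59 over all regions. The region 2065 bp from the start (chr8:72320933-72321322) read 6.08, 7.33 and 22.3, with peak depths (the highest number of overlapping fragments) of 9, 13 and 29. By peak depth TAC stood at 3.22 times Veh/Sham (exact 95% counting interval 1.49 to 7.74, above the 1.43 of depths summed over all regions), and TAC was the only library in which it was called. The upstream region, 8035 bp before the start, showed another order: Veh/Sham read 5, Iso 15.9 and TAC 12, with peak depths of 7, 19 and 17. The region past the gene's end, centred 2967 bp from its start, differed little, at 7.33, 6.33 and 6.5.

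Klf4, a stem cell and endothelial factor, held 5 regions within 2.1 kb of its start, and these did not share an order. The region centred 76 bp upstream of the start (chr4:55532439-55532663), which covers most of the printed promoter, read 7 for Veh/Sham, 8 for Iso and 18.3 for TAC. Peak depths there were 8, 10 and 21, a TAC to Veh/Sham ratio of 2.63 (interval 1.12 to 6.85, which held 1.43, the ratio of depths added up across every region). The region 1085 bp inside the gene (chr4:55531159-55531622) read 14.5, 7.60 and 14.1, so it was low in Iso alone; peak depths of 18, 13 and 17 differed less. Further in, 2069 bp from the start, values were 9.56, 7.61 and 16.2. The 2 remaining upstream regions, at 605 and 1213 bp, read 8.11, 8.47 and 11.6, and 4.64, 6.36 and 11.1. TAC was the highest library at 4 of the 5 Klf4 regions, and the printed promoter overlaps 1 of these 4.

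Klf6, an early gene of tissue injury, had its broadest region over the start. This region (chr13:5860699-5862567) read 10.3, 11.9 and 15.5 in Veh/Sham, Iso and TAC and was called in each. Inside the gene, the regions 1671 and 2170 bp from the start read 6.86, 9.57 and 7.86, and 9, 9.88 and 11.9. The region at 8531 bp (chr13:5869882-5870158) read 6.44, 14.3 and 13.1, and was called in Iso alone. Both hypertrophy libraries were above Veh/Sham there, with peak depths of 9, 17 and 16.

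Klf7, a factor of neuronal and fat cell development, differed in mean signal between the regions near its start and those far inside the gene. By mean signal the 3 regions nearest the start read highest in Veh/Sham. Centred 678 bp upstream (chr1:64121579-64122555), the first read 22.4 for Veh/Sham, 15.3 for Iso and 15.4 for TAC. At 381 bp inside the gene values were 13.5, 9.08 and 11.7, and at 1244 bp 11.5, 4.3 and 9.1. Mean signal and peak depth disagreed upstream, where peak depths were 36, 43 and 33, highest in Iso. They also disagreed at 381 bp, where peak depths were 21, 15 and 27, highest in TAC. At 1244 bp peak depths were 15, 7 and 12, highest in Veh/Sham. The 3 regions far inside the gene were lowest in Veh/Sham. They read 5.27, 15.1 and 11.7 at 33073 bp, 3.57, 7.36 and 13.4 at 42604 bp, and 7.56, 16.1 and 13.3 at 80317 bp. At 33073 bp the peak depths of 8, 22 and 18 put Iso at 2.75 times Veh/Sham (interval 1.18 to 7.14, which held the 1.27 of depths summed over all regions).

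Klf3, the CtBP-dependent repressor, had its strongest region 2667 bp inside the gene (chr5:64805920-64806460), without a CpG island. Veh/Sham read 19.2, Iso 25.2 and TAC 26.6, again with a call in each. Peak depths there were 37, 46 and 39, so the libraries were closer in peak depth. The highest TAC to Veh/Sham ratio of the 51 regions lay 4700 bp inside the gene (chr5:64808103-64808344), at 2.57, 8.29 and 18.6, with peak depths of 4, 11 and 22 (ratio 5.50, interval 1.87 to 22.0). This region was called in TAC alone, and its ratio rests on 4 overlapping fragments in Veh/Sham. Around the start, the region 58 bp upstream read 3.43, 9.29 and 4.14, highest in Iso, while those 694 bp upstream and 376 bp inside read 9.32, 8.32 and 18.4, and 12.3, 7.25 and 13.9, lowest in Iso. The regions at 1869, 8174 and 8955 bp read 8.8, 5.2 and 8.5, then 9.7, 11.2 and 15.2, then 9.52, 12.8 and 20.7.

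Klf9, which glucocorticoid and thyroid hormone induce, had 2 strong regions. The stronger lay 5769 bp upstream of the start (chr19:23133931-23136984, 3053 bp, with a CpG island). Veh/Sham read 35.1 there, Iso 32.5 and TAC 43.8, with peak depths of 142, 97 and 125. By peak depth it ranked 6 among all regions of the Veh/Sham library, 104 in that of Iso and 16 in that of TAC. Peak depth in Iso was 0.68 times that in Veh/Sham (interval 0.52 to 0.89), below both 1 and the 1.27 of depths summed over all regions. The mean signal over the region was nearer level, with an Iso to Veh/Sham log2 ratio of -0.11. Its TAC to Veh/Sham peak ratio was 0.88 (0.69 to 1.13), an interval below the 1.43 of all regions. The promoter region of Klf9 (chr19:23140156-23141466), which holds the printed GTAAACA, read 22.6, 26.2 and 27.5 with peak depths of 52, 66 and 53, and with a call in each library. The regions at the flanks were weaker and differed more: 7571 bp upstream 10.6, 4.9 and 13.8, and 636 bp inside the gene 11.3, 6.43 and 18.5, both lowest in Iso. At 1624 and 6339 bp inside, values were 5.23, 6.85 and 11.5, and 2.31, 4.75 and 7.56.

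Klf10, an early gene of transforming growth factor beta signalling, had no region centred within 1000 bp of its start. Its strongest region lay 1702 bp upstream (chr15:38302212-38302607) and read 15.6 for Veh/Sham, 26.9 for Iso and 28.8 for TAC. It was called in Veh/Sham and Iso but not in TAC. Peak depths were 22, 41 and 41, the same ratio of 1.86 for each treatment (interval 1.08 to 3.29). Both intervals held the ratios over all regions, 1.27 and 1.43. The neighbouring region, 1205 bp upstream (chr15:38301782-38302043), read 7, 14.5 and 23.3 with peak depths of 10, 18 and 29, and was called in no library. Inside the gene, 1005 bp from the start, mean signal was highest in Veh/Sham, at 10.95, 7.67 and 9.25. Peak depths there were 17, 16 and 23, highest in TAC.

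Klf11, a close relative of Klf10, had 2 regions on the sides of its start. The upstream one (chr12:24650627-24651355), over most of the printed promoter, read 12.5, 8.95 and 14.0 in Veh/Sham, Iso and TAC. The one 311 bp inside the gene (chr12:24651429-24651936) read 6.56, 7.88 and 20, with peak depths of 11, 12 and 31 and a TAC to Veh/Sham ratio of 2.82 (interval 1.38 to 6.21). That interval held the 1.43 of all regions. Upstream of the start Veh/Sham and TAC were closer than inside the gene.

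Klf13, which acts with GATA4 in heart development of Xenopus, held the most regions. The strongest lay 41704 bp inside the gene on a CpG island (chr7:63896796-63897627) and read 16.1 for Veh/Sham, 17.3 for Iso and 29.6 for TAC, with a TAC to Veh/Sham peak ratio of 1.68 (34 and 57, interval 1.08 to 2.64, which held 1.43). The promoter region (chr7:63938665-63939813) read 13.8, 11.8 and 21.9, with peak depths of 20, 22 and 43. Both were highest in TAC and about level between Veh/Sham and Iso. A small region 477 bp inside read 6.29, 2 and 8.29, on peak depths of 8, 2 and 10. A broad one (2509 bp long) centred 2004 bp inside the gene read 9.53, 7.60 and 13.5. The other 7 gene body regions read from 3.83 to 11.4 for Veh/Sham, 4.5 to 13.3 for Iso and 6.82 to 17.0 for TAC. Iso was the highest library at 16820 bp, with 6.38, 12.8 and 7.25, and marginally at 33490 bp, with 10.2, 13.3 and 13.1.

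Klf15, the metabolic regulator that restrains cardiac hypertrophy, differed least in mean signal between libraries among the highest regions of the 10 genes. Its region (chr6:90462729-90464041, centred 759 bp inside the gene) read 16.9 for Veh/Sham and 18.1 for both Iso and TAC, with a call in each. Peak depths were 48, 58 and 44. The TAC to Veh/Sham peak ratio of 0.92 (interval 0.59 to 1.41) lay below the 1.43 of all regions, which its interval did not hold. The other region, 8641 bp inside, read 5.34, 7.59 and 10.3 and was called in no library.

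**Figure D2:**
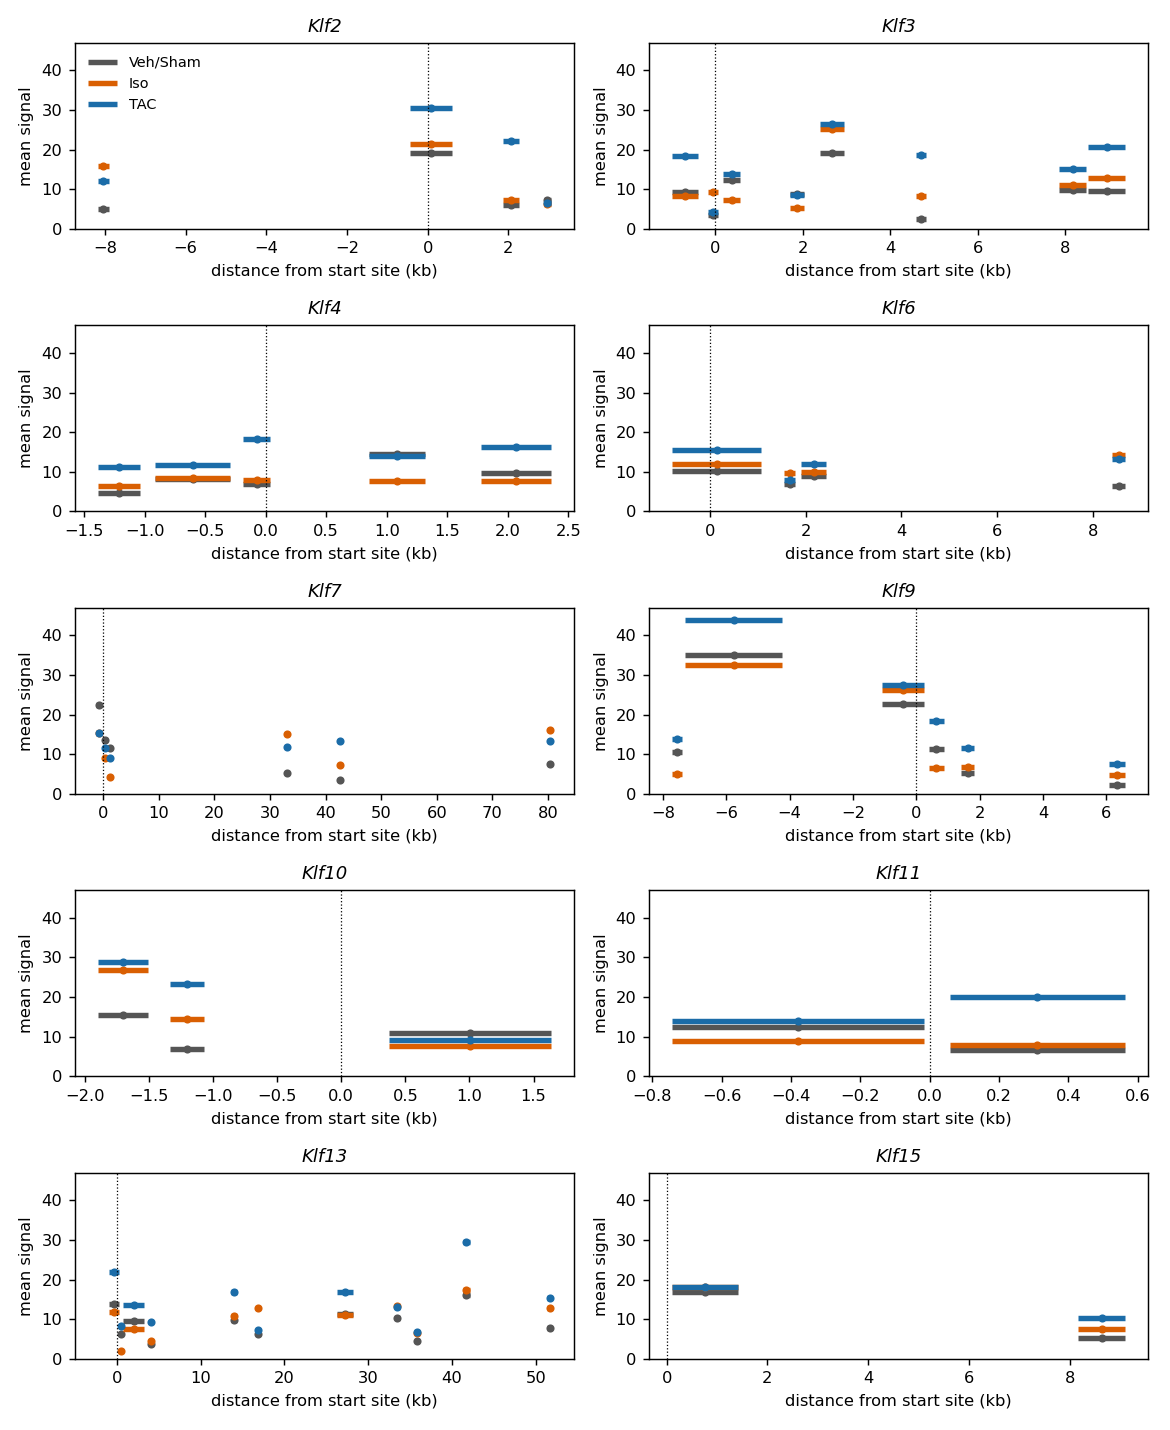
Mean FoxO1 signal of each region against its distance from the gene's start site (kb, upstream negative), 1 panel per gene; each bar spans its region, points are region centres, and colours are the 3 libraries. Klf9 has its highest signal well upstream of the start (centred at 5769 bp), and Klf7 shows Veh/Sham on top near the start and at the bottom far inside the gene.

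Iso was compared with Veh/Sham for the effect of beta-adrenergic stimulation. The KLF regions had a median log2 ratio (mean signal plus a pseudocount of 1) of 0.18, beside 0.30 for all regions. At least 1.5-fold higher in Iso were 12 of 51 (31.8% of all regions), and at least 1.5-fold lower 7 (7.99% of all). The scaling between libraries is unknown, so counts are also given against the median ratio: 8 higher (17.8% of all) and 13 lower (16.1%). The 13 belonged to Klf7 (3), Klf3, Klf4, Klf9 and Klf13 (2 each), and Klf10 and Klf11 (1 each). The lowest log2 ratios were -1.28 at Klf13 (477 bp inside), -1.24 at Klf7 (1244 bp inside) and -0.98 at Klf9 (7571 bp upstream). The highest were 1.49 at Klf2 (8035 bp upstream), 1.38 at Klf3 (4700 bp inside) and 1.36 at Klf7 (33073 bp inside). CpG island regions differed from the others here. Of the 24 with an island, 3 lay above the median ratio of all regions (37.8% of all island regions did), against 17 of the 27 without one (64.4% of all such regions). Median log2 ratios were -0.13 with an island and 0.39 without, beside 0.14 and 0.53 for all regions. The direction was that of the whole table. Above that median lay 12.5% of the KLF regions with an island and 63.0% of those without, and no test could be made with 1 library per condition.

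TAC was compared with Veh/Sham for the effect of pressure overload. The KLF median log2 ratio was 0.59, level with the 0.59 of all regions. At least 1.5-fold higher were 26 of 51 (50.2% of all regions) and 1.5-fold lower were 0 (4.18%). Centred on the table's median, 7 were higher (18.4%) and 7 lower (17.0%), shares near or below the background. The 7 higher were 1 region each of Klf2, Klf3, Klf4, Klf7, Klf9, Klf10 and Klf11, with log2 ratios before centring of 1.71, 2.45, 1.27, 1.65, 1.37, 1.60 and 1.47. The 7 lower were 3 regions of Klf7 and 1 each of Klf2, Klf3, Klf4 and Klf10.

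**Figure D3:**
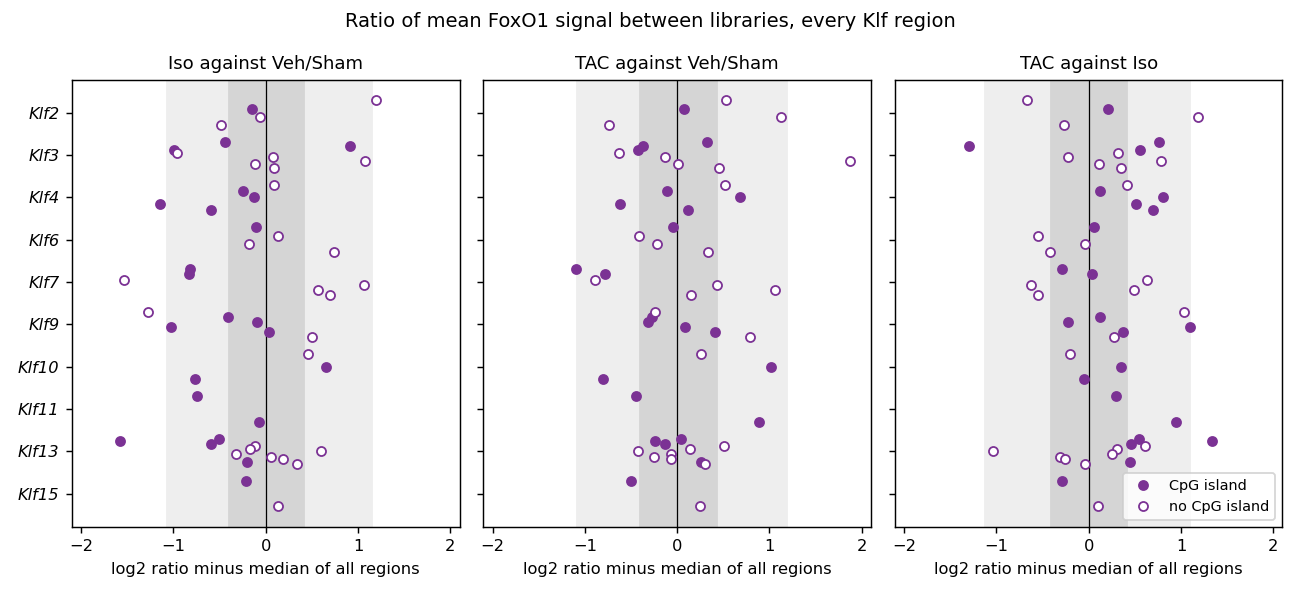
Log2 ratio of mean signal at every KLF region minus the median of all regions, for the 3 comparisons (points stacked by distance within a gene, filled with a CpG island, open without); light and dark shading cover the 5th to 95th and 25th to 75th percentiles of all 16126 regions. In Iso against Veh/Sham 3 of 24 filled points lie right of 0, and in TAC against Veh/Sham 7 points lie at least 1.5-fold above 0 and 7 below.

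TAC and Iso were compared directly, which uses the same 3 libraries again. The KLF median log2 ratio was 0.55, beside 0.29 for all regions. At least 1.5-fold higher in TAC were 24 of 51 (31.4% of all regions), and 2 were lower (8.85%), at Klf3 (58 bp upstream, -1) and Klf13 (16820 bp inside, -0.74). After the same centring 11 were higher (17.0% of all) and 4 lower (17.4%). The highest ratios were at Klf13 (477 bp inside, 1.63), Klf2 (2065 bp inside, 1.48), Klf9 (636 bp inside, 1.39) and Klf9 (7571 bp upstream, 1.33). TAC held the highest mean signal at 36 of the 51 regions (63.1% of all regions), Iso at 8 (26.9%) and Veh/Sham at 7 (10.1%). TAC was the lowest of the 3 at 0 KLF regions (10.6% of all).

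**Figure D4:**
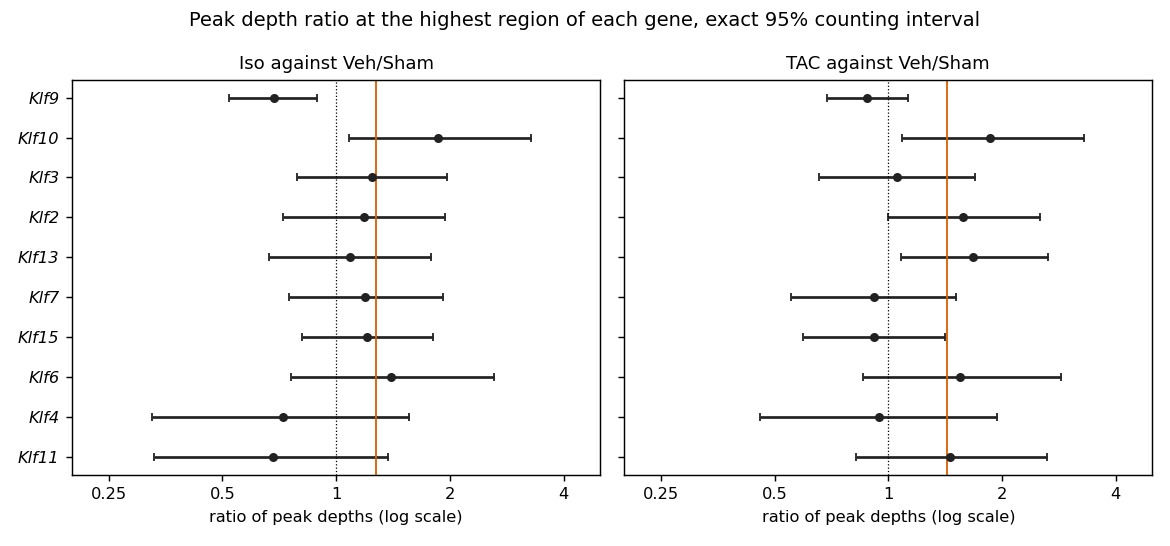
Ratio of peak depths to Veh/Sham at the highest region of each gene (log axis), with exact 95% counting intervals; the dotted line is 1 and the coloured line the ratio of depths summed over all regions (1.27 for Iso, 1.43 for TAC). In Iso the Klf9 interval (0.52 to 0.89) lies left of both lines, and in TAC the Klf9 and Klf15 intervals lie left of 1.43. How many intervals over all regions miss these ratios was not counted.

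Of 16 other KLF and Sp genes, 8 had a region. That all 10 members had one follows from how they were chosen, so the share of genes with a region is not compared between them and this list. The 8 were Klf1, Klf16, Sp1, Sp2, Sp3, Sp4, Sp7 and Sp9. By their highest region, 2 were at least 1.5-fold higher in Iso than in Veh/Sham and 0 lower (centred, 1 and 1), where 31.8% and 7.99% of all regions were (centred, 17.8% and 16.1%). In TAC 2 were higher and 0 lower (centred, 1 and 0), beside 50.2% and 4.18% of all regions (centred, 18.4% and 17.0%). Here and for the lists below, these shares cover every region, weak ones included. The share among the highest regions of all genes was not worked out, so a gap from these shares is not read as a trait of a list. The highest region of Klf16 lay at the start of Rexo1 and read 15.0, 14.8 and 17.8; that of Klf1 lay at the start of Dnase2a (8, 13.3 and 10.8). Sp1, the founding GC-box factor, had 1 region upstream of its start that read 23.7, 23.1 and 34.7 with peak depths of 100, 100 and 115. Sp4 read 23.1, 28.4 and 42.1 at its start. The Sp7 region lay at the start of Aaas and read 7.88, 21.7 and 21.5. Sp2 read 14.9, 11.3 and 17.0, Sp3 14.9, 15.1 and 22.5, and Sp9 5.1, 7 and 5.3.

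Partners and upstream regulators of KLFs had a region in 19 of 20 cases. By their highest region, in Iso against Veh/Sham 2 were at least 1.5-fold higher and 1 lower (centred, 1 and 2) beside 31.8% and 7.99% of all regions (centred, 17.8% and 16.1%). Those shares are not limited to the highest region of each gene. Mef2d (log2 ratio 0.89) and the coactivator Crebbp (0.87) were highest. The Mef2d region was also assigned to Gm19451, and the Crebbp region lay 135523 bp from the Crebbp start and was also assigned to Trap1. Lowest were Map2k5, the kinase upstream of Erk5 in the induction of Klf2 (-1.35), and the glucocorticoid receptor Nr3c1 (-0.30). In TAC against Veh/Sham 8 of the 19 were higher and 0 lower (centred, 1 and 3) beside 50.2% and 4.18% of all regions (centred, 18.4% and 17.0%). Ratios ran from Mef2d (1.63) and Hdac1 (1.07, a region shared with Lck) to Fbxw7 (-0.10) and Hdac2 (-0.13). TAC against Iso ran from Map2k5 (1.40) and the corepressor Ctbp1 (0.92) to Crebbp (-0.48) and Mef2c (-0.52). The Map2k5 region read 8.67 for Veh/Sham, 2.8 for Iso and 9 for TAC, so 1 low Iso value stands behind both of its ratios.

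Genes reported as KLF targets in vessel and heart had a region in 14 of 18 cases. By their highest region, 3 of the 14 were at least 1.5-fold higher in Iso than in Veh/Sham and 0 lower (centred, 0 and 1). The shares of all regions, not of highest regions alone, were the same 31.8% and 7.99% (centred, 17.8% and 16.1%). Ratios were highest at the receptor Kdr (0.72) and thrombomodulin, Thbd (0.63), with Prodh (-0.32) and Ccnd1 (-0.18) lowest. In TAC against Veh/Sham 6 of the 14 were higher and 0 lower (centred, 0 and 2) beside 50.2% and 4.18% (centred, 18.4% and 17.0%). Ratios ran from Smad7 (1.07) and the carnitine carrier Slc25a20 (0.93, a region 30611 bp from its start and shared with Prkar2a) to Pdk4 (-0.09) and Prodh (-0.49). TAC against Iso ran from Cdkn1a (0.79) and Ccnd1 (0.78) to Pdk4 (-0.48) and Kdr (-0.50).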

How the data were processed

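FoxO1 ChIP-seq of 3 heart pools was used, 1 library each; the input library was not analysed here. Per the submitters' processing notes, BWA, SICER and the mm10 build were used, with no versions or roles. The authors deposited a table of merged regions with, per library, a mean signal (coverage), a peak signal (whole numbers, read here as fragment depth) and a call. The sources used here do not say how the deposited signal was scaled across libraries. Of its columns, 6 belong to libraries that match no sample here and were not used. Depth per library was not stated; median peak depths of all regions were 12, 16 and 19 fragments in Veh/Sham, Iso and TAC.

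Regions were taken where a gene symbol matched exactly. Log2 ratios of mean signal used a pseudocount of 1, which understates ratios of low regions. A difference of 1.5-fold was a rule of size. Peak depth ratios have exact (Clopper-Pearson) 95% intervals that treat depths as counts and leave out every other error. No molecular identifiers were counted and a peak is a maximum over positions, so the 95% is nominal even for counting error. No interval is a test between conditions. Among many 95% intervals some miss the ratio of summed depths through counting error alone. The share of all regions whose interval misses it was not worked out, so a miss is not read as a result. Regions of 1 gene share a locus and are not replicates. Distances, CpG islands and gene assignments are the authors'. Motifs were counted by exact match. All members were named, with every listed family gene that had a region, and the 2 highest and 2 lowest of the other lists, by the region of highest mean signal. The members and lists were chosen with earlier results of these data known. Alternatives were peak depth, pseudocounts of 5 and 0.1, a 2-fold rule, recentring, omitting the lowest 25% of regions by signal, called regions only and 1 region per gene. The scripts were tested on simulated data. Software was scipy 1.17.1, pandas 2.3.3 and numpy 2.4.6 under Python 3.11.15, with figures by matplotlib 3.10.9.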

Additional observations from a re-analysis of the deposited data

How the results depend on the processing

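The 3 KLF medians kept their sign, except that of Iso to Veh/Sham on recentring. Set against the median of all regions, the medians were -0.12 (Iso to Veh/Sham), 0.0073 (TAC to Veh/Sham) and 0.25 (TAC to Iso). Recentred counts were 13 lower (Iso to Veh/Sham), 7 higher and 7 lower (TAC to Veh/Sham), and 11 higher and 4 lower (TAC to Iso). For Iso against Veh/Sham, the 7 lower regions became 3 with peak depth and 4 with a pseudocount of 5. They became 4 without the 25% of regions of lowest signal, 2 with the 2-fold rule and 1 with 1 region per gene. The 12 higher became 9 with a pseudocount of 5 and 9 without the regions of lowest signal. With called regions only they became 5, with the 2-fold rule 6 and with 1 region per gene 1. For TAC against Veh/Sham, the 26 higher became 18 with a pseudocount of 5 and 20 without the regions of lowest signal. They became 14 with called regions only, 13 with the 2-fold rule and 3 with 1 region per gene. For TAC against Iso, the 24 higher became 15 with a pseudocount of 5, 11 with called regions only, 8 with the 2-fold rule and 3 with 1 region per gene. Its 2 lower became 1 with a pseudocount of 5, 1 without the regions of lowest signal, 1 with the 2-fold rule, and 0 with called regions only or 1 region per gene. Leaving out the regions of lowest signal kept 38 KLF regions, and 1 region per gene kept 10. Called regions only, meaning called in either library compared, kept 31 (Iso to Veh/Sham), 32 (TAC to Veh/Sham) and 27 (TAC to Iso). Counts under these settings are out of those numbers, so a lower count need not be a lower share. Apart from recentring, no share of all regions is given under another setting, so these counts are not set against a background. Among single regions, that of Klf3 at 1869 bp turned from -0.66 to 0.13 with peak depth in Iso against Veh/Sham; the cause was not tested. No paired analysis was possible because each condition has 1 library. Peak depths of 2 to 142 fragments limit single ratios, most of all below 10.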
